A study of Mus musculus with 6 samples.

Results

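The genes described here are 38 regulators and components of the cell division cycle, from the MCM helicase that licenses replication origins to the kinases, checkpoint proteins and chromosome proteins of mitosis. They were chosen by name, with earlier results of these data known. All probe sets (groups of probes read as 1 value) carrying 1 of these symbols in the platform annotation were taken, and 37 of the 38 genes had at least 1, with 92 probe sets in all. These 37 are part of 18193 genes with a named probe set. Ccnb1, the B1 cyclin, was not matched to a probe set through the annotation used, and its expression was not analysed here. Each gene is read at its brightest probe set over all arrays, and others are given for some genes.

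Expression was measured on 6 Affymetrix arrays, 2 in each of 3 groups, all from ICR embryos at 8.5 days post coitum with 3 to 4 somites, before the circulation begins. The groups are Flk1-positive cells, Flk1 KO embryos and wild-type (WT) embryos, with the embryo proper taken in both embryo groups. Flk1, the product of Kdr, is the VEGF receptor of endothelial cells and their precursors. The study's design text also names Flk1+/GFP embryos, and the cells are labelled only as Flk1 positive. Whether the cells carry that genotype cannot be told apart from the group, and the sources used here do not tell how they were selected. Nothing in the labels ties the 2 arrays of a group to separate animals, so the limma p-values below measure the spread between these arrays, which may be technical.

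A cell enters division through G1, when D-type cyclins with Cdk4 or Cdk6 and E-type cyclins with Cdk2 inactivate the retinoblastoma protein and release E2F factors. E2F factors then switch on genes for origin licensing and DNA synthesis, and a later wave of genes, repressed until G2 through the DREAM and MuvB complexes, supplies the cyclins, kinases and spindle proteins of mitosis. Embryos at this stage divide rapidly, and in bulk RNA the level of these genes is often used as a measure of how much a population is cycling. The arrays measure the RNA of whole populations, so fewer cells of a type and less RNA per cell cannot be told apart.

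From the promoters of these genes, 5 are shown because they belong to genes that the results return to: the licensing genes Mcm7 and Mcm5, the mitosis genes Ccnb2 and Bub1b, and the D cyclin gene Ccnd3. Each is the RefSeq window of GRCm38.p6 covering 250 bases before and 50 bases after the start of the gene, in the direction of the gene. Capitals mark matches, on either strand, to one of the E2F cores, which are TTCCCGC and also TTGGCGC and also TTGCCGC and lastly TTCGCGC, to the CHR element of late cell cycle genes (TTTGAA) and to the CCAAT box (CCAAT). Cores overlap each other in both MCM promoters, and in Mcm7 a core also overlaps a CCAAT box. Mcm7 and Ccnd3 each have 2 windows in the table, and the one with more matches is given. The windows lie at chr5:138171834-138172133 on the minus strand (Mcm7), chr8:75109259-75109558 on the plus strand (Mcm5), chr9:70421505-70421804 on the minus strand (Ccnb2), chr2:118597961-118598260 on the plus strand (Bub1b) and chr17:47593217-47593516 on the plus strand (Ccnd3).
Mcm7: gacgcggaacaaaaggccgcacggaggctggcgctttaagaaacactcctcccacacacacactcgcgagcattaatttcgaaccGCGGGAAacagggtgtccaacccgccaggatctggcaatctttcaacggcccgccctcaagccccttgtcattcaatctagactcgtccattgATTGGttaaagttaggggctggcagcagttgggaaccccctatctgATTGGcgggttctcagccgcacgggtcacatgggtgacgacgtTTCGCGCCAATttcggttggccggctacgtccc
Mcm5: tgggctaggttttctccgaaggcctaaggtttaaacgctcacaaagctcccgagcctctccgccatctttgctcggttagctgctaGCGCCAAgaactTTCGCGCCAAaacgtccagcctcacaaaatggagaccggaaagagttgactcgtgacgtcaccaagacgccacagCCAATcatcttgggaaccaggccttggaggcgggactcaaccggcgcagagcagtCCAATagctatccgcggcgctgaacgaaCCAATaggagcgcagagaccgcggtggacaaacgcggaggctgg
Ccnb2: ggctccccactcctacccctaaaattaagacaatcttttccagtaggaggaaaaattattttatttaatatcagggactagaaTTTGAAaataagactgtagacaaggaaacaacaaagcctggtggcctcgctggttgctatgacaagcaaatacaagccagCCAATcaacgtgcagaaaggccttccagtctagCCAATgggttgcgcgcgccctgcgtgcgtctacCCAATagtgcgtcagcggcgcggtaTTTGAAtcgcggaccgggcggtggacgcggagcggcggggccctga
Bub1b: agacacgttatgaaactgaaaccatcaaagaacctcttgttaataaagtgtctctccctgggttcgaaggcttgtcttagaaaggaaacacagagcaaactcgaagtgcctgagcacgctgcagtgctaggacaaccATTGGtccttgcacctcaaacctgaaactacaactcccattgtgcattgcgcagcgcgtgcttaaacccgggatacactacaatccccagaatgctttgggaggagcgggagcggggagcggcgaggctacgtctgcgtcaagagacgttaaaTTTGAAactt
Ccnd3: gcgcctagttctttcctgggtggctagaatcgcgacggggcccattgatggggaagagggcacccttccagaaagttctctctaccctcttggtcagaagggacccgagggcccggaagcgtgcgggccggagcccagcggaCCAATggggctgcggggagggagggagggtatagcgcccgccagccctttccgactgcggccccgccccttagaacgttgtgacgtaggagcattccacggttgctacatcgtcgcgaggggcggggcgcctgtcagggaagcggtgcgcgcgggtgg

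The RefSeq table held 33 windows for 31 of the 38 listed genes, Ccnb1 included. An E2F core was present in 9 of 12 windows of licensing and DNA synthesis genes and in 3 of 13 windows of G2/M and mitosis genes, against 9.57% of all 32851 windows. The CHR letters ran the other way, with 10 of 13 mitosis windows and 1 of 12 S phase windows (that of Mcm2), against 17.9% of all windows. CCAAT was common in both, in 9 of 12 S phase and 12 of 13 mitosis windows, against 37.4% of all. In Ccnb2 the CCAAT boxes began 87, 54 and 21 bases before the start. The Ccnd3 window shown held a CCAAT box and neither of the other motifs, and the other Ccnd3 window held none of the 3. Ccnd2, Ccnd1, Ccne2, Mcm4, Gmnn, Ccna2 and Aurkb had no entry in the table. A match describes letters in this window only.

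The targeted gene matched the labels: Kdr (1449379_at) gave signals of 3309 and 3328 for Flk1-positive cells, 29.5 and 63.8 in Flk1 KO embryos and 543.9 and 545.5 in WT embryos. All 10 endothelial markers listed were called higher in Flk1-positive cells than in the WT embryos, and in Flk1 KO embryos 7 of the 10, Pecam1 and Cdh5 among them, lay at or below a background signal of 57.4, set from olfactory and vomeronasal receptor probe sets. Other lists also moved with the Flk1-positive arrays. All 6 primitive erythroid markers tested were called higher than in WT embryos, with a summed signal of 43019 and 44771 in Flk1-positive cells against 486 to 990 in WT embryos. The same held for 5 of 6 other blood cell markers and for all 9 immediate early genes, whose summed signal was 18932 and 19194 in Flk1-positive cells and 3588 to 3798 in WT embryos. All 6 neuroectoderm, 5 somite and 6 cardiomyocyte markers tested were called lower, with 5 of the 6 neuroectoderm markers at background in Flk1-positive cells. Of 6 gut endoderm markers 5 were lower and Sox17, which endothelial cells also express, was higher. Between Flk1 KO and WT embryos 4 endothelial markers were called lower, and the summed signal of cardiomyocyte markers was 34725 and 23221 in Flk1 KO and 17059 and 17565 in WT embryos with no call. The log2 difference between the 3′ and 5′ probe sets of Actb was 0.26 and 0.29 in Flk1-positive cells, 0.47 and 0.58 in Flk1 KO and 0.55 and 0.57 in WT embryos, while that of the transferrin receptor was 1.26 and 1.35 in Flk1-positive cells, 0.96 and 1.05 in Flk1 KO and 0.94 and 1.0 in WT embryos. The same difference for Gapdh was -0.32 and -0.36 in Flk1-positive cells, -0.33 and -0.37 in Flk1 KO and -0.32 and -0.32 in WT embryos. The part of blood cells, immediate early genes or RNA quality in the results below was not tested.

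All 37 genes were expressed in every group. The lowest group mean of any brightest probe set was a signal of 178.5, above the background of 57.4, and all 37 passed the filter on dim probe sets, as did 83 of the 92 probe sets. In the plot of values by array most genes lie in a narrow band, and the arrays of Ccnd2 and Ccnd3 spread furthest. Differences are given as log2 values ± SE on a scale of log2(signal + 21.61), on which the change of a dim gene comes out too small.

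**Figure D1:**
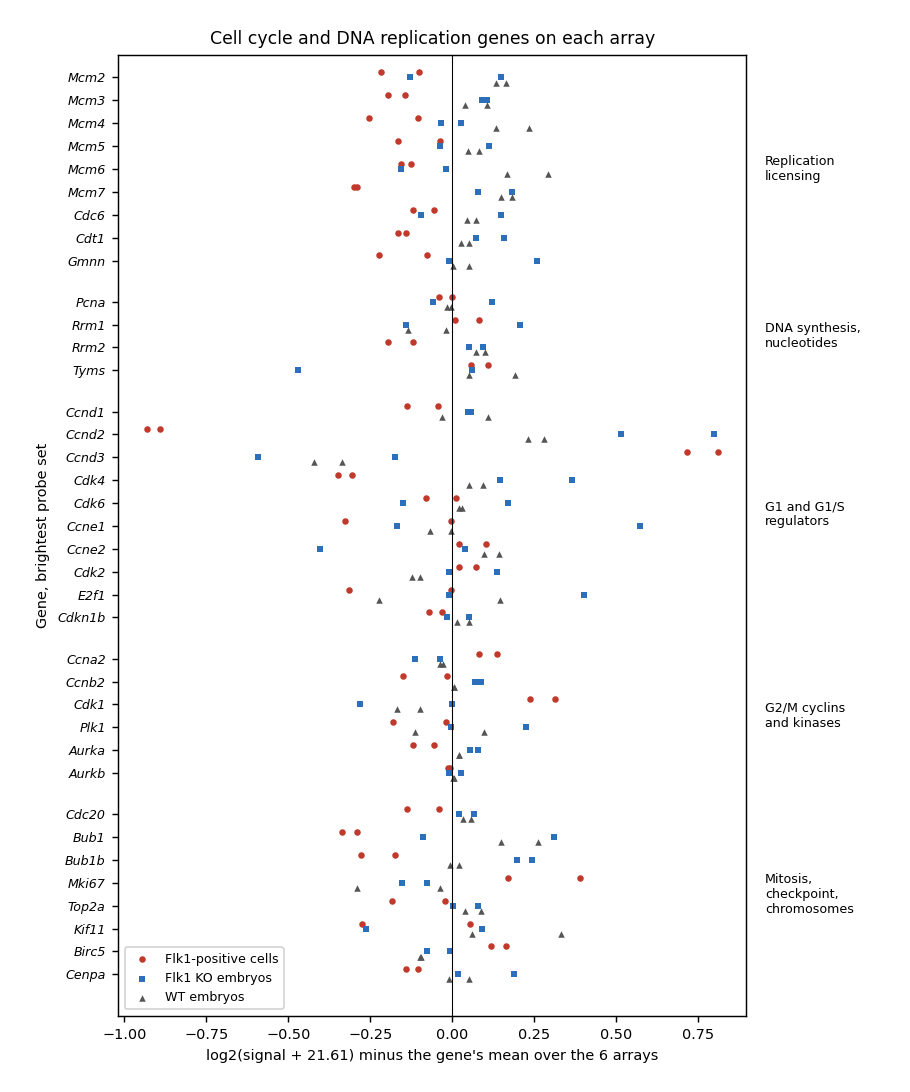
Values of all 37 genes on each of the 6 arrays at the brightest probe set, as log2(signal + 21.61) minus the gene's mean over the arrays, in rows ordered by role; circles are Flk1-positive cells, squares Flk1 KO embryos and triangles WT embryos. Most genes lie within a narrow band around 0, while Ccnd2 is low (signals of 2897 and 2979) and Ccnd3 high (6282 and 6709) in Flk1-positive cells.

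Against WT embryos, Flk1-positive cells differed widely over the transcriptome and by small amounts in most of these genes. Of the 37 genes, 3 passed the limma test (adjusted p under 0.05 over all probe sets): Ccnd3 was higher, and Ccnd2 and Mcm7 were lower. Over all 14947 genes tested the same rule called 30.6%, with 12.5% higher and 18.1% lower. Without the second WT array only Ccnd2 was called among the 37, while the share of all probe sets called went to 13.3%, against 26.1% with all arrays. With an intensity trend and a robust prior, 13 of the 37 genes were called, against 32.9% of all probe sets, so the low share of calls among these genes depends on how the spread was estimated. A missed threshold does not show equal levels, so the 95% intervals matter more here: for 35 of the 37 genes the interval lay entirely within 2-fold in either direction, against 55.9% of all genes and 63.0% of those in the brighter part of the array. The exceptions were Ccnd2 and Ccnd3. This count is for the brightest probe sets, and some other probe sets had intervals reaching past 2-fold. Examples are 1416492_at of Ccne1 (-1.24 to -0.61) and 1442454_at of Top2a (-1.02 to -0.31). Upward, 1419497_at of Cdkn1b, below the background signal in each group, had 0.06 to 1.47. With probe set medians in place of the brightest probe sets, the count was again 35 of 37. A difference smaller than 0.5 on the log2 scale was found for 34 of the 37 genes, against 58.6% of all genes. The median difference of the 37 genes was -0.13, beside -0.09 over all genes.

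The small differences lay mostly on 1 side. The difference was below 0 for 30 of 37 genes, against 56.5% of all genes. Both Flk1-positive arrays lay below both WT arrays for 24 of the 37, against 42.1% of all genes, and above both for 7, against 30.5%. The count depends on the scale of the arrays: with each array centred on its median, the median of the 37 genes was -0.06, that of all genes was -0.02, and 25 of the 37 genes and 7724 of all 14947 lay below 0. An unadjusted limma p under 0.05 was reached by 9 of the 37 genes, against 6498 of all 14947 genes.

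**Figure D2:**
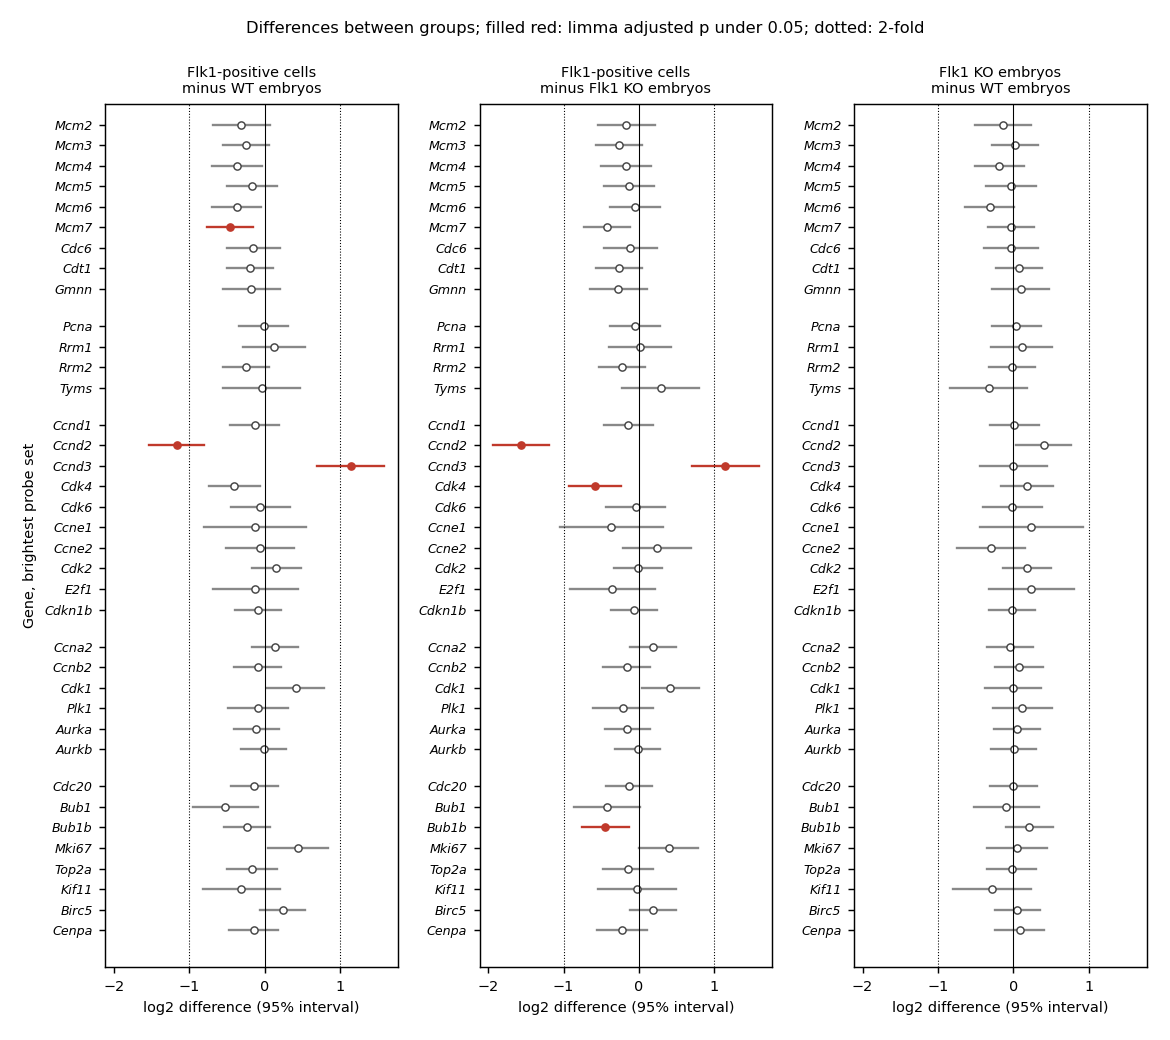
Difference between groups for each gene at its brightest probe set, on the log2 scale, with the 95% interval from limma; the panels show Flk1-positive cells minus WT embryos, Flk1-positive cells minus Flk1 KO embryos and Flk1 KO minus WT embryos, filled red points have an adjusted p under 0.05 and dotted lines mark 2-fold. In the first panel 3 genes are filled and 35 of 37 intervals stay between the dotted lines, in the second 4 genes are filled, and in the third none.

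Among the origin licensing genes, all 9 had a lower mean in Flk1-positive cells than in the WT embryos. For each of the 9 both Flk1-positive arrays lay below both WT arrays, as they did for 42.1% of all genes. Their differences ran between -0.46 and -0.15, with a median of -0.24. Mcm7 alone passed the test, while 18.1% of all genes were called lower. Mcm7, a subunit of the replicative helicase, gave signals of 14008 and 14080 for Flk1-positive cells, 18201 and 19564 in Flk1 KO embryos and 19114 and 19552 in WT embryos at 1438320_s_at. The Flk1-positive arrays were the low ones and the 2 embryo groups overlapped. The difference from WT embryos was -0.46 ± 0.12 (limma adjusted p = 0.0453), or 1.38-fold lower. All 4 Mcm7 probe sets passed, with differences between -0.67 and -0.46. At 1416030_a_at, for instance, the signals were 6880.3 and 6817 in Flk1-positive cells, 12088 and 11019 in Flk1 KO embryos and 10716 and 11168 in WT embryos. The call at the brightest probe set was close to the threshold and was lost without either Flk1-positive array or either WT array, with an adjusted p of up to 0.179. It was also lost with the lower pseudocount, without a filter, with median centring and with the replicate block (limma adjusted p = 0.0544, 0.0728, 0.0771 and 0.0781), and was kept in 9 of 17 alternatives.

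The other helicase subunits showed smaller differences at their brightest probe sets. Mcm6 gave signals of 9138 and 9339 for Flk1-positive cells, 9146 and 10061 in Flk1 KO embryos and 11446 and 12476 in WT embryos, a difference from WT of -0.37 ± 0.13 (limma adjusted p = 0.0962), and Mcm4 differed by -0.36 ± 0.13 (limma adjusted p = 0.101). Mcm2, Mcm3 and Mcm5 differed by -0.31, -0.24 and -0.17. Mcm2 has a second probe set, 1434079_s_at, that did pass, at -0.56 ± 0.13 (limma adjusted p = 0.0307). The loading factors Cdc6 and Cdt1 and the Cdt1 inhibitor geminin (Gmnn) completed the group at -0.15, -0.19 and -0.18. Cdc6 gave signals of 3162 and 3309 for Flk1-positive cells, 3221 and 3817 in Flk1 KO and 3551 and 3620 in WT embryos, so the WT arrays lay above the Flk1-positive arrays and the Flk1 KO arrays overlapped with both (difference from WT -0.15 ± 0.14, limma adjusted p = 0.492).

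The 4 genes of DNA synthesis and nucleotide supply had a median difference of -0.025, and none passed the test. Pcna, the sliding clamp of the replication fork, gave signals of 22622 and 23250.3 for Flk1-positive cells, 22333 and 25338 in Flk1 KO embryos and 23040.4 and 23236 in WT embryos. The 3 groups overlapped, and the difference from WT was -0.01 ± 0.13 (limma adjusted p = 0.954), with an interval of -0.34 to 0.32. The ribonucleotide reductase subunits lay on either side of 0, with Rrm1 at 0.12 ± 0.16 and Rrm2 at -0.24 ± 0.12. Their intervals, -0.29 to 0.53 and -0.55 to 0.06, overlapped and included 0. Rrm2 signals were 13283 and 14027 in Flk1-positive cells, below 15773 and 16261 in Flk1 KO and 16007 and 16310 in WT embryos, without passing the test (limma adjusted p = 0.206). Tyms, thymidylate synthase, differed by -0.04 ± 0.20.

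The G1 regulators held the 2 differences that reached 2-fold, and these went in opposite directions within the D-type cyclins, the partners of Cdk4 and Cdk6 that couple growth signals to G1 progression. Ccnd2 gave signals of 2897 and 2979 for Flk1-positive cells, 7927 and 9656 in Flk1 KO embryos and 6513 and 6743 in WT embryos. The 3 groups did not overlap, with Flk1-positive cells lowest and Flk1 KO embryos highest. The difference between Flk1-positive cells and WT embryos was -1.17 ± 0.15 (limma adjusted p = 0.00427), or 2.25-fold lower. Ccnd2 has 7 tested probe sets, all lower in Flk1-positive cells with differences between -1.22 and -0.86, and 4 of them passed. Ccnd2 was called under all 17 alternative settings, with an adjusted p of at most 0.0355.

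Ccnd3 gave signals of 6282 and 6709 for Flk1-positive cells, 2525 and 3383 in Flk1 KO embryos and 2846 and 3022 in WT embryos. Both Flk1-positive arrays stood above the 4 embryo arrays, and the embryo groups overlapped. The difference from WT was 1.14 ± 0.18 (limma adjusted p = 0.00848), or 2.20-fold higher. It rests on 1 of 3 probe sets. Neither of the other 2 passed: 1444323_at gave signals of 129.8 and 206.9 for Flk1-positive cells, 79.1 and 147.2 in Flk1 KO and 83.5 and 118 in WT embryos, and 1438805_at had a mean below the background signal in each group. The call was lost without the second WT array (limma adjusted p = 0.0563) and with the median over the probe sets, a difference of 0.62 (limma adjusted p = 0.212). Ccnd1, the third D-type cyclin, gave signals of 4469 and 4773 for Flk1-positive cells, 5083 and 5116 in Flk1 KO and 4810 and 5310 in WT embryos. Its difference of -0.13 had an interval of -0.45 to 0.19.

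**Figure D3:**
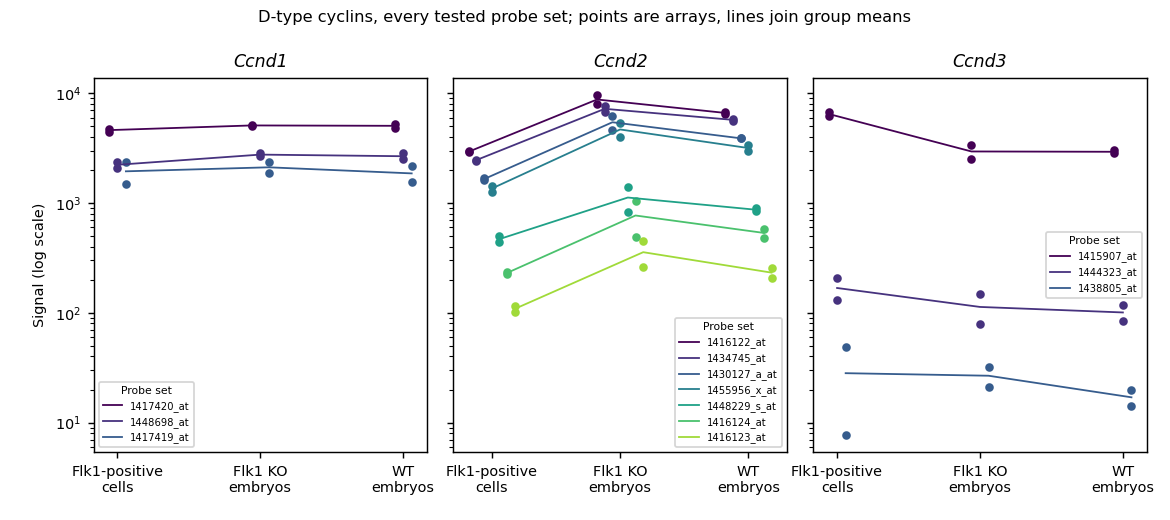
Signal, on a log axis, of every tested probe set of the 3 D-type cyclin genes in Flk1-positive cells, Flk1 KO embryos and WT embryos; points are arrays, lines join the means of 1 probe set. All 7 Ccnd2 probe sets are lowest in Flk1-positive cells, Ccnd1 is nearly level, and the rise of Ccnd3 is seen in the probe set 1415907_at (6282 and 6709 against 2846 and 3022 in WT embryos).

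The kinase partners of the D-type cyclins did not pass the test against WT embryos. Cdk4 gave signals of 8668 and 8932 for Flk1-positive cells, 12212 and 14233 in Flk1 KO embryos and 11438 and 11797 in WT embryos, a difference from WT of -0.40 ± 0.14 (limma adjusted p = 0.0888). Its other 2 probe sets lay at -0.40 and -0.32, and none of the 3 passed. Cdk6 differed by -0.06 ± 0.16, with other probe sets at 0.07 and, below the background signal, at 0.25. Of the genes that act next, Cdk2 was at 0.16 ± 0.13, the E2F transcription factor E2f1 at -0.12 ± 0.23 and the Cdk inhibitor p27 (Cdkn1b) at -0.08 ± 0.12. The second tested probe sets of E2f1 and Cdkn1b lay at 0.24 and 0.77, the latter below the background signal in each group. Of the E-type cyclins, which activate Cdk2, Ccne2 gave signals of 1906 and 2019 for Flk1-positive cells, 1416 and 1933 in Flk1 KO and 2010.3 and 2077 in WT embryos, a difference from WT of -0.06 ± 0.18 (limma adjusted p = 0.842). The 2 Ccne1 probe sets were both below 0 but differed in size and in call. The brightest, 1441910_x_at, had 1059 and 1331 in Flk1-positive cells, 1183 and 1994 in Flk1 KO and 1271 and 1329 in WT embryos, a difference of -0.13 ± 0.27 (limma adjusted p = 0.767). The other, 1416492_at, had 592.1 and 618.5 in Flk1-positive cells, 1242 and 1258 in Flk1 KO and 1118 and 1218 in WT embryos, a difference of -0.92 ± 0.13 (limma adjusted p = 0.00546). The x in a probe set name marks probes that may also bind other transcripts, and 8 of the 37 brightest probe sets carry an s or x.

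None of the 6 G2/M cyclins and kinases passed the test. Cdk1, the kinase that drives entry into mitosis, had the widest difference, with signals of 9845 and 10384 for Flk1-positive cells, 6864 and 8343 in Flk1 KO embryos and 7421 and 7788 in WT embryos. Both Flk1-positive arrays were above all embryo arrays, and the difference from WT was 0.41 ± 0.15 (limma adjusted p = 0.102). Its cyclin partners lay on either side of 0, Ccna2 at 0.14 ± 0.12 and Ccnb2 at -0.09 ± 0.13. Aurkb, the kinase of the chromosomal passenger complex, was nearly level, with signals of 2524 and 2534 for Flk1-positive cells, 2528 and 2595 in Flk1 KO and 2551 and 2559 in WT embryos, a difference of -0.01 ± 0.12 (limma adjusted p = 0.942) with an interval of -0.31 to 0.28. Plk1, which matures centrosomes and spindles, and Aurka, which acts at spindle poles, differed by -0.09 and -0.11.

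The 8 mitosis, checkpoint and chromosome genes also gave no call, and they too went both ways. The spindle checkpoint kinase Bub1 gave signals of 4076 and 4208 for Flk1-positive cells, 4841 and 6395 in Flk1 KO embryos and 5716 and 6189 in WT embryos, a difference from WT of -0.52 ± 0.17 (limma adjusted p = 0.0823). Mki67, the proliferation antigen Ki-67 that coats mitotic chromosomes, lay on the other side, with 5086 and 5926 in Flk1-positive cells, 4062 and 4287 in Flk1 KO and 3692 and 4405 in WT embryos, a difference of 0.44 ± 0.16 (limma adjusted p = 0.0972). In both genes the Flk1-positive arrays did not overlap with the embryo arrays. Cdc20, the activator of the anaphase-promoting complex, had 12480.5 and 13366 in Flk1-positive cells, 13948 and 14395 in Flk1 KO and 14059 and 14302 in WT embryos, a difference of -0.13 ± 0.12 (limma adjusted p = 0.472). The checkpoint protein gene Bub1b was at -0.23, the spindle motor Kif11 at -0.31, topoisomerase Top2a at -0.17, the centromeric histone Cenpa at -0.14 and survivin (Birc5) at 0.24, none past the test. A second Top2a probe set, 1442454_at, did pass, at -0.67 ± 0.14 (limma adjusted p = 0.0233).

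Set side by side, S phase genes (licensing and DNA synthesis) had a median difference of -0.19 from WT embryos with 12 of 13 below 0, mitosis genes -0.10 with 10 of 14 below 0, and G1 regulators -0.10 with 8 of 10 below 0. The medians by array, as deviations from each gene's mean, were -0.13 and -0.12 in Flk1-positive cells, -0.01 and 0.12 in Flk1 KO embryos and 0.07 and 0.08 in WT embryos for S phase genes. The same medians for mitosis genes were -0.11 and -0.02 in Flk1-positive cells, 0.01 and 0.02 in Flk1 KO and 0.01 and 0.01 in WT embryos. The S phase median lay 0.09 below the mitosis median in the comparison with WT embryos, a gap that was not tested and is about as wide as that between the 2 Flk1-positive arrays for mitosis genes. For all genes together the medians were -0.03 and -0.07 in Flk1-positive cells, 0.03 and 0.05 in Flk1 KO and 0.03 and 0.04 in WT embryos. In the lists of further genes described below, the gap between S phase and mitosis genes was wider. There, 38 other S phase genes had a median difference from WT embryos of -0.31, with 32 below 0. The 35 other mitosis genes had a median of -0.03, with 20 below 0. That gap was not tested either.

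Against Flk1 KO embryos, which share the Flk1-positive arrays with the comparison above, 4 of the 37 genes passed the test, against 32.8% of all genes. Ccnd3 was higher by 1.15 ± 0.18 (limma adjusted p = 0.00759), or 2.21-fold, and with the median over its probe sets it did not pass (0.51, limma adjusted p = 0.288). Ccnd2 was lower, at -1.57 ± 0.15 (limma adjusted p = 0.00148), or 2.96-fold, and all 7 of its probe sets passed. Cdk4 was lower at -0.58 ± 0.14 (limma adjusted p = 0.0286), with 1 further probe set of 3 past the test. Bub1b, whose product holds back anaphase, gave signals of 2360 and 2535 for Flk1-positive cells, 3289 and 3395 in Flk1 KO embryos and 2853 and 2906 in WT embryos. The 3 groups did not overlap, and the difference between Flk1-positive cells and Flk1 KO embryos was -0.45 ± 0.12 (limma adjusted p = 0.0459). With the intensity trend 11 genes were called, against 35.9% of all probe sets. Ccnd2 and Ccnd3 kept the call when any 1 array was left out, with differences of -1.709 to -1.425 and 0.936 to 1.355. Bub1b missed the threshold when any 1 array was left out (-0.498 to -0.395). Cdk4 missed it without either Flk1-positive array, either WT array or the first Flk1 KO array, and its differences without 1 array ran from -0.692 to -0.472.

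At their brightest probe sets the other genes stayed close. Lower genes numbered 3 of 37 against 19.6% of all genes, and higher genes 1 against 13.2%. The interval lay within 2-fold for 34 of the 37 genes, against 54.7% of all genes and 61.9% of the brighter ones, and 34 differed by less than 0.5, against 57.2%. Both Flk1-positive arrays lay below both Flk1 KO arrays for 18 genes and above them for 5, against 40.2% and 29.3% of all genes. The difference was below 0 for 29 of the 37, against 55.6% of all genes, and the median of the 37 was -0.14, beside -0.08 over all genes. Cdk1 was at 0.42 ± 0.15 (limma adjusted p = 0.0912) and Mki67 at 0.39 ± 0.16 (limma adjusted p = 0.12). Mcm7 was at -0.43 ± 0.12 (limma adjusted p = 0.0521) at its brightest probe set, while its other 3 passed with differences between -0.75 and -0.61. Probe sets that were not the brightest also passed for Ccne1 (1416492_at, -1.02, limma adjusted p = 0.00357), Mcm2 (1434079_s_at, -0.62, limma adjusted p = 0.0201) and Kif11 (1452315_at, -0.57, limma adjusted p = 0.0374). At their brightest probe sets these genes lay at -0.37, -0.17 and -0.02. S phase, mitosis and G1 genes had medians of -0.17, -0.14 and -0.10.

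The comparison of Flk1 KO with WT embryos asks what the loss of Flk1 changes in the embryo proper. None of the 37 genes passed the limma test, against 0.154% of all genes. At an unadjusted limma p under 0.05 there was 1 at the brightest probe sets, Ccnd2, against 940 of all 14947 genes. Other probe sets of Cdk6 (1455287_at, 0.37) and Top2a (1442454_at, -0.49) also reached that level. No tested probe set of a member passed the adjusted test. Of 26 genes with several tested probe sets, 13 had the same sign at all of them. No member passed under any of the alternative settings. The interval lay within 2-fold for all 37 genes, against 81.6% of all genes, and the median difference was 0.0038. In 4 genes the Flk1 KO arrays were both below the WT arrays and in 8 both above, against 18.2% and 19.1% of all genes. The difference was below 0 for 18 of the 37 genes, against 49.7% of all genes. With each array centred on its median these counts were 8 of the 37 genes and 6320 of the 14947 genes tested.

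None of the widest differences between Flk1 KO and WT embryos passed the test. Ccnd2 was at 0.40 ± 0.15 (limma adjusted p = 0.552) with both Flk1 KO arrays above both WT arrays, as given above. Tyms (1442192_at) gave signals of 214.6 and 223.1 for Flk1-positive cells, 142.1 and 215 in Flk1 KO embryos and 213.5 and 237.3 in WT embryos, so that 1 Flk1 KO array stood apart, and the difference of -0.33 ± 0.20 had an adjusted limma p of 0.759. Mcm6 was at -0.32 ± 0.13 (limma adjusted p = 0.613) with both Flk1 KO arrays below the WT arrays. Ccne2 at -0.30 ± 0.18, Ccne1 at 0.24 ± 0.27 and E2f1 at 0.23 ± 0.23 had limma adjusted p-values of 0.747, 0.871 and 0.846. E2f1 signals were 476.7 and 596.5 in Flk1-positive cells, 594.1 and 797.7 in Flk1 KO and 509.5 and 664.2 in WT embryos, overlapping in all groups. S phase, mitosis and G1 genes had medians of -0.03, 0.03 and 0.09 in this comparison.

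The 37 genes are a part of the machinery, and 98 further tested cell cycle genes, taken from 4 other lists, widen the view. Differences under 0.5 in size were most common among the 37 genes, then among other mitosis and other S phase genes, and least common among cell cycle brakes; these shares were not tested against each other.

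**Figure D4:**
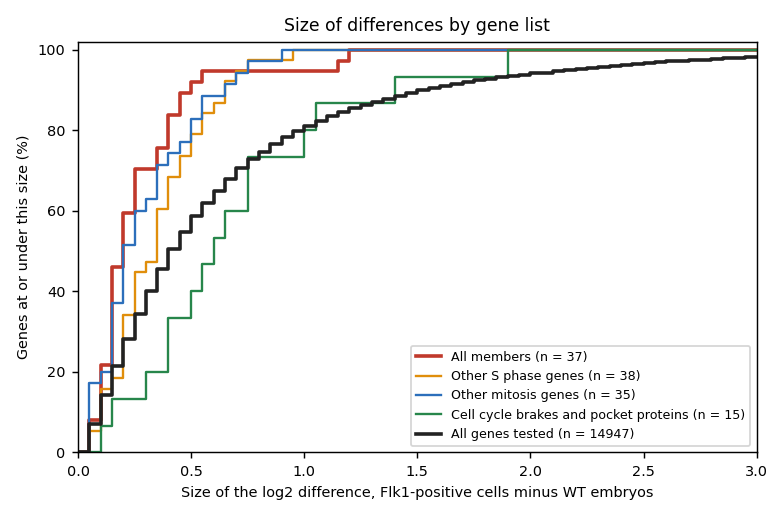
Cumulative share of genes, in percent, whose log2 difference between Flk1-positive cells and WT embryos is at or under the size on the horizontal axis, for the 37 genes, other S phase genes (38), other mitosis genes (35), cell cycle brakes and pocket proteins (15) and all 14947 genes tested. Sizes under 0.5 were found for 34 of the 37 genes, 30 of 38 other S phase genes, 29 of 35 other mitosis genes and 6 of 15 brakes, against 58.6% of all genes.

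Of the 38 other S phase genes tested, 8 were called lower and none higher in Flk1-positive cells than in the WT embryos, with a median of -0.31. That share of lower genes is near the 18.1% of all genes, while 12.5% of all genes were higher. The difference was below 0 for 32 of the 38, against 56.5% of all genes. Both Flk1-positive arrays lay below both WT arrays for 30 and above both for 5, against 42.1% and 30.5% of all genes. With median centring the median was -0.24, with 29 of the 38 below 0, and that of all genes was -0.02. Nasp, a chaperone for newly made histones, gave signals of 5245 and 5318 for Flk1-positive cells, 10468 and 11063 in Flk1 KO embryos and 9748 and 10512 in WT embryos. Its difference of -0.94 ± 0.13 (limma adjusted p = 0.0052) was the widest of this list. Rpa3, a subunit of the single-strand binding protein RPA, was at -0.74 ± 0.14 (limma adjusted p = 0.0161). The clamp loader subunits Rfc5 and Rfc1 were at -0.63 ± 0.12 (limma adjusted p = 0.017) and -0.63 ± 0.13 (limma adjusted p = 0.0217). The other 4 called were Rfc4, the ligase Lig1, the histone chaperone subunit Chaf1b and the chromatin remodeller Hells, at -0.51, -0.59, -0.67 and -0.53. In the comparison with Flk1 KO embryos 11 of the 38 were lower and none higher, against 19.6% and 13.2% of all genes, Nasp again most, at -1.02 ± 0.13 (limma adjusted p = 0.00352), and Lig1 at -0.76 ± 0.14 (limma adjusted p = 0.0136).

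Among other mitosis genes 4 of 35 were called lower and none higher, a smaller share than the 18.1% and 12.5% of all genes. Their median of -0.03 became 0.03 with median centring. The centrosomal kinase Nek2 gave signals of 1456 and 1619.7 for Flk1-positive cells, 2720 and 2978 in Flk1 KO and 2688 and 2894 in WT embryos, a difference of -0.85 ± 0.14 (limma adjusted p = 0.00929). The cytokinesis motor Kif20a was at -0.69 ± 0.15 (limma adjusted p = 0.0268), the kinetochore protein gene Cenpf at -0.71 ± 0.19 (limma adjusted p = 0.0457) and Ect2, which acts in cytokinesis, at -0.63 ± 0.16 (limma adjusted p = 0.0403). Set against Flk1 KO embryos, 5 were lower (19.6% of all genes) and none higher (13.2%), among them the phosphatase gene Cdc25b at -0.83 ± 0.16 (limma adjusted p = 0.0168).

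Brakes on the cycle went both ways: of 15 tested, 4 were called higher and 2 lower in Flk1-positive cells than in the WT embryos, against 12.5% and 18.1% of all genes. Higher were the Cdk4 and Cdk6 inhibitors p18 (Cdkn2c) and p19 (Cdkn2d), the inhibitor p57 (Cdkn1c) and Ccng1, a target of p53. Cdkn2c gave signals of 201.6 and 265.8 for Flk1-positive cells, 77.1 and 79.6 in Flk1 KO embryos and 68.7 and 82.8 in WT embryos. The embryo arrays lay just above the background of 57.4, and the difference was 1.38 ± 0.17 (limma adjusted p = 0.00423). Cdkn2d, Cdkn1c and Ccng1 were at 0.73 ± 0.16, 0.60 ± 0.14 and 0.97 ± 0.24 (limma adjusted p = 0.0266, 0.0342 and 0.0346).

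The 2 called lower were Gadd45a, a growth arrest and DNA damage gene, and the antiproliferative gene Tob1. Gadd45a gave signals of 167.7 and 189.8 for Flk1-positive cells, 591.5 and 612.6 in Flk1 KO and 635.9 and 774.3 in WT embryos, a difference of -1.85 ± 0.15 (limma adjusted p = 0.00113). Tob1 had 433.2 and 438.3 in Flk1-positive cells, 911.9 and 1110.1 in Flk1 KO and 883.6 and 906.7 in WT embryos, a difference of -1.0 ± 0.15 (limma adjusted p = 0.00676). In each of these 6 genes the Flk1-positive arrays stood apart from all 4 embryo arrays. With Flk1 KO embryos, 4 were again higher and 4 lower, against 13.2% and 19.6% of all genes, with Ccng2 at -0.69 and Wee1, a kinase that inhibits Cdk1, at -0.51 added to the lower ones.

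**Figure D5:**
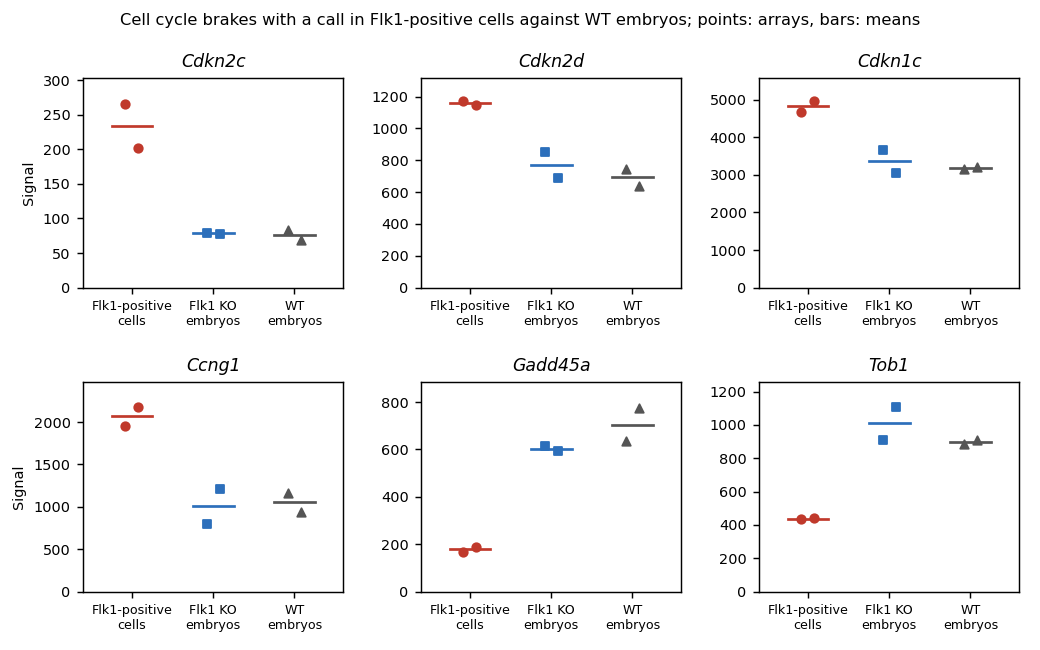
Signal on each array, from 0, of the 6 cell cycle brakes called in Flk1-positive cells against WT embryos; points are arrays of Flk1-positive cells, Flk1 KO embryos and WT embryos and bars are the means of 2 arrays. Cdkn2c, Cdkn2d, Cdkn1c and Ccng1 are higher and Gadd45a and Tob1 lower on both Flk1-positive arrays than on all embryo arrays.

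Of 10 other E2F factors and partners, 3 were lower in Flk1-positive cells than in the WT embryos and none higher, against 18.1% and 12.5% of all genes. They were E2f5, a repressor of the family, at -0.90 ± 0.12 (limma adjusted p = 0.00588), Tfdp2, a dimer partner, at -0.90 ± 0.13 (limma adjusted p = 0.00598), and E2f3 at -0.68 ± 0.15 (limma adjusted p = 0.0254). Against Flk1 KO embryos Tfdp2 and E2f5 were lower, where 19.6% of all genes were. Between Flk1 KO and WT embryos none of the 98 further genes passed the limma test, against 0.154% of all genes. An unadjusted limma p under 0.05 was reached by 1 of them, against 940 of all 14947 genes. The counts among these 98 genes rest on all arrays and on how the spread was estimated. With the intensity trend, a larger share of the 98 than of all probe sets was called in both comparisons of Flk1-positive cells. The shares of all probe sets were then 32.9% against WT and 35.9% against Flk1 KO embryos. Against WT embryos 21 of the 98 were called, beside 30.6% of all genes, and 6 to 7 without either Flk1-positive or either WT array, where 12.9% to 15.4% of all probe sets were called. In the comparison of Flk1-positive cells with Flk1 KO embryos 26 were called, beside 32.8% of all genes. That count was 7 without either Flk1-positive array (17.7% and 18.2% of all probe sets), 12 without either WT array (23.2%) and 16 without the second Flk1 KO array (22.3%).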

How the data were processed

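Total RNA, purified with an RNeasy Micro kit and biotin-labelled, was hybridised to Affymetrix arrays, per the labels' protocols, and the design text names GeneSpring. The deposited values are a linear signal for 45101 probe sets per array, with a 2% trimmed mean of 500 on all 6 arrays and a lowest value of 1; the sources used here do not tell how the authors computed this signal. Probe sets with 1 symbol in the platform annotation (34958) were named.

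Signals were used as log2(signal + 21.61), the pseudocount being the 25th percentile of all values. The 33778 probe sets whose mean reached the 25th percentile (64 controls left out) were fitted with limma 3.58.1 in R 4.3.3, with group as the only term on all 6 arrays, Benjamini-Hochberg adjustment over all of them and a threshold of 0.05. The 3 comparisons share arrays pairwise. The procedure was tested on simulated data. Background was the 95th percentile of 80 receptor probe sets.

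Members and gene lists were chosen with earlier results of these data known, so they are described by counts and medians beside all genes. All members are accounted for. Every array is given for members that passed the test, for the 3 widest differences in each direction per comparison, and for those with the widest or smallest differences in each role list. Of the other lists, up to 4 genes called per direction are named with values, and the rest called were added after their values were seen. Promoter windows were from RefSeq, with 2 members having 2 windows. Figures were drawn with matplotlib 3.10.9. Alternatives covered pseudocount, filter, normalization, prior, groups fitted, replicate block, choice of probe set and leaving out each array.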

Additional observations from a re-analysis of the deposited data

How the results depend on the processing

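Ccnd2 was called in both comparisons of Flk1-positive cells under all 17 alternatives, and no member was called between Flk1 KO and WT embryos under any. The count of members called in Flk1-positive cells against WT embryos, 3, became 7 with the median as pseudocount, 9 with the filter at the 50th percentile and 13 with an intensity trend and robust prior (31.3%, 41.2% and 32.9% of all probe sets called under these settings, against 26.1% otherwise), and 1 to 4 without 1 array. Against Flk1 KO embryos, 4 became 11 with the trend and 2 with only the 2 groups compared (35.9% and 23.2% of all probe sets, against 29.2%), and 2 to 3 without 1 array. Of the 98 other cell cycle genes, 21 were called against WT embryos in the main fit, beside 26.1% of all probe sets. This count became 13 without a filter, 35 with the stricter filter, 40 with the trend and 13 with the replicate block. The shares of all probe sets called were then 17.1%, 41.2%, 32.9% and 22.9%. Without 1 array the count was 6 to 24. Against Flk1 KO embryos, 26 of the 98 were called, beside 29.2% of all probe sets. This became 16 without a filter, 45 with the trend, 12 with 2 groups and 15 with the block. The shares of all probe sets were then 19.3%, 35.9%, 23.2% and 26.0%. Without 1 array the count was 7 to 19. In both comparisons the 98 genes were called less often than all probe sets in the main fit, and more often with the trend.

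Replicate numbers did not pair the arrays (same-numbered arrays correlated at 0.029, 0.008 and 0.023 in their deviations). With the replicate block 2, 3 and 0 members were called in Flk1-positive cells against WT, Flk1-positive cells against Flk1 KO and Flk1 KO against WT embryos. Of all probe sets 22.9%, 26.0% and 0.00% were called in these comparisons.

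The median of the members in Flk1-positive cells against WT embryos became -0.064 with median centring, and lay between -0.157 and -0.087 without 1 array; against Flk1 KO embryos it lay between -0.183 and -0.097. In Flk1 KO against WT embryos it became 0.041 with median centring, 0.049 when the median of each gene's probe sets was used, and -0.0042 to 0.045 without 1 array. The S phase median minus the mitosis median became -0.134 with quantile normalization (-0.156 to -0.083 without 1 array) against WT, -0.063 with the probe set median (-0.101 to 0.036) against Flk1 KO, and -0.010 with the probe set median (-0.075 to -0.0096) in Flk1 KO against WT embryos. Members within 2-fold numbered 30 to 35, 30 to 34 and 34 to 37 in these 3 comparisons without 1 array.

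Of 407 values of single members under an alternative, 356 kept direction and side of the threshold, 29 lost the call, 17 gained one and 5 changed sign: with median centring Aurkb (0.050), Ccne2 (0.0066) and Pcna (0.052) in Flk1-positive cells against WT embryos, Pcna also without the first Flk1-positive array (-0.033 to 0.0070 without 1 array), and Ccne1 in Flk1 KO against WT embryos without the first Flk1 KO array (-0.134 to 0.609 without 1 array). None of these was called. The causes were not tested. Slide or scan as a block was not run, since no such information was used. Where leaving out an array left 1 in a group, that array was taken to vary like the other groups. Reading the brightest probe set without an s or x suffix was an alternative chosen after seeing the data. Flk1-positive cells then had 4 calls against WT and 6 against Flk1 KO embryos among 36 members, against 26.1% and 29.2% of all probe sets. Ccne1 was among the calls in both. The interval lay within 2-fold for 33 and 32 of the 36. The number of arrays limits the precision.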
